A study of Homo sapiens with 12 samples.

Results

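The genes described here make, modify and carry heparan sulfate. They are HS3ST1, NDST1 and HS2ST1, whose products modify the chain, EXT1 and EXT2, which build it, and the cell surface core proteins SDC1, SDC2, SDC4, GPC1 and GPC4. Members were taken by name, as every probe set whose platform symbol is 1 of these 10 genes, which gave 25 of the 54675 probe sets on the array. The list was selected on role, but also on measured values, since HS3ST1 was chosen by its log2 differences between HCT116 and both derived lines, and the other genes were added with results of the same arrays known. Differences between HCT116 and these lines are therefore given for the 10 genes as a description, with no p-value, and nothing is read from their counts of calls. Hke3 minus Hkh-2 is made of the same differences. Its adjusted p are printed for the genes other than HS3ST1, also as a description.

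HCT116 cells come from a human colorectal carcinoma and carry an oncogenic RAS allele, which was altered by homologous recombination to give the isogenic lines Hke3 and Hkh-2. The question of the comparison is which transcripts differ when oncogenic RAS is lost. RNA was hybridised to Affymetrix arrays, 3 per group, in 4 groups. The groups are HCT116 control cells given vehicle and collected on day 3, HCT116 control cells given 25 ng/ml doxycycline and collected on day 3, Hke3 in basal culture, and Hkh-2 in basal culture. All cells were grown in DMEM with serum. Doxycycline is the agent that induces the knockdown vectors used elsewhere in the study. Each recombined line is a single line, and the study's methods describe the oncogenic allele as deleted while a supplementary description gives it as exchanged for the wild-type allele. The sources do not settle whether the vehicle arrays are the parental HCT116, so HCT116 below means the vehicle-treated control arrays. Nothing states that replicate arrays stem from separate cultures, so p-values reflect only how far arrays of a group scatter, which may be technical. In bulk RNA, fewer cells that express a gene and less RNA per cell cannot be told apart.

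Heparan sulfate is a linear polysaccharide attached to serine residues of core proteins at the cell surface and in the matrix. It starts on a short linkage tetrasaccharide, is polymerised in the Golgi by the EXT1 and EXT2 complex, and is then sulfated in steps, by NDST enzymes on glucosamine nitrogen, by HS2ST1 on uronic acid, and by HS6ST and HS3ST enzymes on glucosamine. The pattern of sulfates decides which growth factors, among them the FGFs, and which other proteins the chain can bind, and in colon epithelium syndecans and glypicans act as co-receptors for such ligands.

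Values are log2 RMA values, in which 1 unit is a doubling of signal, and a group mean under 6 was treated as near background. Levels of different probe sets cannot be set against each other. All 10 genes had a representing probe set with every group mean at 6 or more, the lowest being 6.09 for SDC2 in Hkh-2. Of the 25 probe sets, 20 passed this level in at least 1 group and 5 did not. Correlation between arrays of a group was 0.993 to 0.998, but replicate 2 of HCT116 vehicle and replicate 3 of Hke3 deviated from their groups in a shared direction (r = 0.683 between their deviations across genes). Values without these arrays that stood apart are given beside results that they moved. The actin control probe sets at the 5′ end read below those at the 3′ end by 0.48 to 0.855 in HCT116 vehicle and by 0.232 to 0.324 in Hkh-2, while those of GAPDH stayed within −0.033 and 0.114 in every group, and the part of RNA integrity in the results was not tested. Of 9 colon epithelium markers, 8 were above background and CDH17 was not. EPCAM averaged 13.09 to 13.25 in the 4 groups, and the summed level of the list was 88.6 to 94.0 over the arrays. Others of the list varied more between group means. KRT20 (6.62 to 8.86), CDH1 (11.07 to 12.24), KRT8 (12.59 to 13.39), KRT19 (12.93 to 13.60) and KRT18 (14.01 to 14.54) were highest in Hkh-2. VIL1 (6.45 to 6.57) was also highest there, and CDX2 (6.45 to 6.89) was highest with vehicle. Of the other lists, 3 of 5 fibroblast markers (summed level 28.6 to 32.0) and 1 of 3 leukocyte markers (14.5 to 15.6) reached a group mean of 6. So did 2 of 3 endothelial markers (15.4 to 17.3). In every group COL1A1 (8.19 to 8.43), DCN (6.01 to 6.21), CD3E (6.04 to 6.18) and PECAM1 (6.56 to 6.86) were above 6. VWF averaged 6.35 with vehicle, 6.33 with doxycycline, 5.34 in Hke3 and 5.32 in Hkh-2, and COL3A1 reached 6.73 in Hkh-2 alone. The defining PTPRC averaged 3.80 to 3.94 and CDH5 3.90 to 4.13. The part of other cells in the results was not tested.

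To show the start regions of genes of both directions, the 250 bases before their annotated transcript start were read from RefSeq sequences of GRCh38.p14. This was done for 8 of the 10 genes. The start regions of EXT1 and SDC2 were not examined, so nothing is said of their letters. Shown are HS3ST1 and SDC1, which were higher in HCT116, and SDC4 and GPC4, which were higher in both derived lines. Capitals mark GGGCGG, the core of the SP1 site, in either orientation (GGGCGG or CCGCCC) and, in SDC4, the ETS core CCGGAA, also in either orientation. Each line reads 5′ to 3′ toward the start. All 4 lie on the minus strand, at chr4:11428895-11429144 for HS3ST1, chr2:20225476-20225725 for SDC1, chr20:45348425-45348674 for SDC4 and chrX:133415490-133415739 for GPC4. The HS3ST1 start is not the outermost annotated end of the gene.
HS3ST1: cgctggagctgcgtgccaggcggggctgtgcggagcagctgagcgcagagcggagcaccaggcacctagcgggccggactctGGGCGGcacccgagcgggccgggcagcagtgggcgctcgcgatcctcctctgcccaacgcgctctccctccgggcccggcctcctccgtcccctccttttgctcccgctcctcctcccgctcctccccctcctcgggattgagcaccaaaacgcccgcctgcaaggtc
SDC1: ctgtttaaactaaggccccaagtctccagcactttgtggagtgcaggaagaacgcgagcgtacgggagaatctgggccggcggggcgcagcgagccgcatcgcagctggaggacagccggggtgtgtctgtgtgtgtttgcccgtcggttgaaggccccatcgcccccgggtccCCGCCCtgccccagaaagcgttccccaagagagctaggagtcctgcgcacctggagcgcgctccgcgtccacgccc
SDC4: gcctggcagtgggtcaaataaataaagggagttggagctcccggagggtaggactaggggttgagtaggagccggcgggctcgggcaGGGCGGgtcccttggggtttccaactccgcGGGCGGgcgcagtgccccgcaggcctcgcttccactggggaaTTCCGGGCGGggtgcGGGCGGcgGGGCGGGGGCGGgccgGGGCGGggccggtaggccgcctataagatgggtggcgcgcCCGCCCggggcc
GPC4: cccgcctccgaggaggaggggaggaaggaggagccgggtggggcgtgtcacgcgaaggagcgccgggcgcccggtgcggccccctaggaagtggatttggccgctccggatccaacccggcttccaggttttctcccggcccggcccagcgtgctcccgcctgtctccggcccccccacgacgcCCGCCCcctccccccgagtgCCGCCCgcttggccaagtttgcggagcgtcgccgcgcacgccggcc
The HS3ST1 window held 1 SP1 match, 168 to 163 bases before the start, and was 73.2% G and C. The SDC1 window held 1, at 76 to 71 bases, and the GPC4 window 2, at 66 to 61 and 46 to 41 bases. The SDC4 window held 8 SP1 matches and 1 ETS match at 91 to 86 bases, which overlaps the SP1 match at 87 to 82 bases. Over 35116 RefSeq windows of this length, 42.6% held the SP1 letters and 14.5% the ETS letters, and the median share of G and C was 58.0%. The AP-1 letters TGANTCA, held by 6.57% of all windows, occurred among the 8 genes in NDST1 only, as TGAGTCA at 47 to 41 bases before its start, and the E-box CACGTG, held by 6.34% of all windows, in none of them. These matches are a description of the letters and were not tied to the levels below.

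HS3ST1 encodes the sulfotransferase that adds the rare 3-O-sulfate to glucosamine, best known for making the antithrombin binding site. Its representing probe set, 205466_s_at, read 11.56, 11.27 and 11.25 on the HCT116 vehicle arrays and 11.35, 11.37 and 11.24 with doxycycline. It read 8.81, 8.78 and 8.90 in Hke3 and 7.92, 7.92 and 8.18 in Hkh-2. The 4 groups fall in 3 levels that do not overlap, with HCT116 highest whether or not doxycycline was given, Hke3 between and Hkh-2 lowest. The vehicle mean of 11.36 ± 0.17 (SD, n = 3) was 2.53 above Hke3 and 3.35 above Hkh-2, with a standard error of 0.10 for each. With the doxycycline arrays in place of vehicle the differences were 2.49 and 3.31. The step from Hke3 to Hkh-2, 0.82 (95% interval 0.61 to 1.04), follows from the 2 values by which the gene was chosen and is given without a test.

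The size of the HS3ST1 difference depended on the probe set. The second one, 205465_x_at, read 8.01, 8.44 and 7.79 on the vehicle arrays, 6.57, 6.79 and 6.57 in Hke3, and 6.58, 6.50 and 6.16 in Hkh-2. HCT116 lay above both lines without overlap, by 1.44 and 1.67, but Hke3 and Hkh-2 overlapped. The third, 213991_s_at, lay close to background in every group, at 6.05, 5.98 and 6.19 with vehicle and between 5.48 and 5.81 in the derived lines, so no size is given for it.

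NDST1, the N-deacetylase and N-sulfotransferase that begins modification of the chain, differed far less between groups. It read 7.56, 7.38 and 7.55 with vehicle, 7.58, 7.54 and 7.65 with doxycycline, 7.98, 7.83 and 7.96 in Hke3, and 7.63, 7.68 and 7.72 in Hkh-2. Every Hke3 array lay above all arrays of the other groups. HCT116 was 0.42 below Hke3 and 0.17 below Hkh-2 (SE 0.08 for each), the second coming to 0.12 without vehicle replicate 2, and Hke3 was 0.25 above Hkh-2 (95% interval 0.09 to 0.41, adjusted p = 0.0187, limma). That call was lost without Hke3 replicate 1 (adjusted p = 0.072), Hkh-2 replicate 1 (adjusted p = 0.0642) or Hkh-2 replicate 2 (adjusted p = 0.0521), and with the mean of its probe sets (0.12, adjusted p = 0.224, limma). The probe set 1554010_at put HCT116 0.17 below Hke3 but 0.06 above Hkh-2, and 202608_s_at was under 6 in every group.

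HS2ST1, the 2-O-sulfotransferase of uronic acid, read 9.38, 8.97 and 9.54 with vehicle, 9.37, 9.27 and 9.50 with doxycycline, 10.05, 10.04 and 9.62 in Hke3, and 9.59, 9.52 and 9.74 in Hkh-2. The Hke3 arrays lay above the HCT116 arrays, while the vehicle and Hkh-2 arrays overlapped at 9.54 and 9.52. HCT116 was 0.61 below Hke3 and 0.32 below Hkh-2 (SE 0.15 for each), and Hke3 minus Hkh-2 was 0.29 (95% interval −0.03 to 0.60, adjusted p = 0.137, limma). Both arrays that stood apart read low for this gene, the vehicle array 0.49 and the Hke3 array 0.42 below the mean of the others in its group. Without both, HCT116 was 0.59 below Hke3 and 0.16 below Hkh-2, and Hke3 minus Hkh-2 came to 0.43 (adjusted p = 0.00137, limma). Its probe sets disagreed in direction, since 203283_s_at put HCT116 lower by 0.29 and 0.42, and 203285_s_at put it higher by 0.11 and 0.19. For Hke3 minus Hkh-2 these gave −0.13 and 0.08, and the mean of the gene's probe sets gave 0.05.

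EXT1, a glycosyltransferase of the polymerase complex, stood out in Hke3. It read 8.48, 8.35 and 8.46 with vehicle and 8.62, 8.43 and 8.56 with doxycycline. It read 9.88, 9.90 and 10.03 in Hke3 and 8.72, 8.74 and 8.58 in Hkh-2. Hke3 lay more than 1 unit above every array of the other groups, and Hkh-2 lay above the vehicle arrays but overlapped those with doxycycline. HCT116 was 1.50 below Hke3 and 0.25 below Hkh-2 (SE 0.08 for each). The difference from Hkh-2 was −0.10 with the mean of the gene's probe sets and −0.15 with the doxycycline arrays in place of vehicle, against −1.33 and −1.40 from Hke3. Hke3 minus Hkh-2 was 1.25 (95% interval 1.08 to 1.43, adjusted p = 9.11e-08, limma). The probe set 230183_at, above background in Hke3 alone, read 6.82, 6.75 and 6.63 there and between 5.01 and 5.50 on the vehicle and Hkh-2 arrays. It too did not overlap between Hke3 and the other groups.

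EXT2, the partner of EXT1 in the polymerase, differed from it in pattern on its representing probe set. It read 9.52, 9.53 and 9.45 with vehicle, 9.65, 9.59 and 9.39 with doxycycline, 9.89, 9.79 and 10.09 in Hke3, and 9.93, 9.99 and 9.89 in Hkh-2. Both derived lines lay above HCT116 without overlap and overlapped each other. HCT116 was 0.43 below Hke3 and 0.44 below Hkh-2 (SE 0.09 for each), and Hke3 minus Hkh-2 was −0.01 (95% interval −0.21 to 0.18, adjusted p = 0.926, limma). The other probe set, 202013_s_at, put HCT116 0.47 and 0.22 below. It had Hke3 0.25 above Hkh-2 without overlap (adjusted p = 0.0641, limma with each probe set by itself), and the mean of the gene's probe sets gave 0.12.

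**Figure D1:**
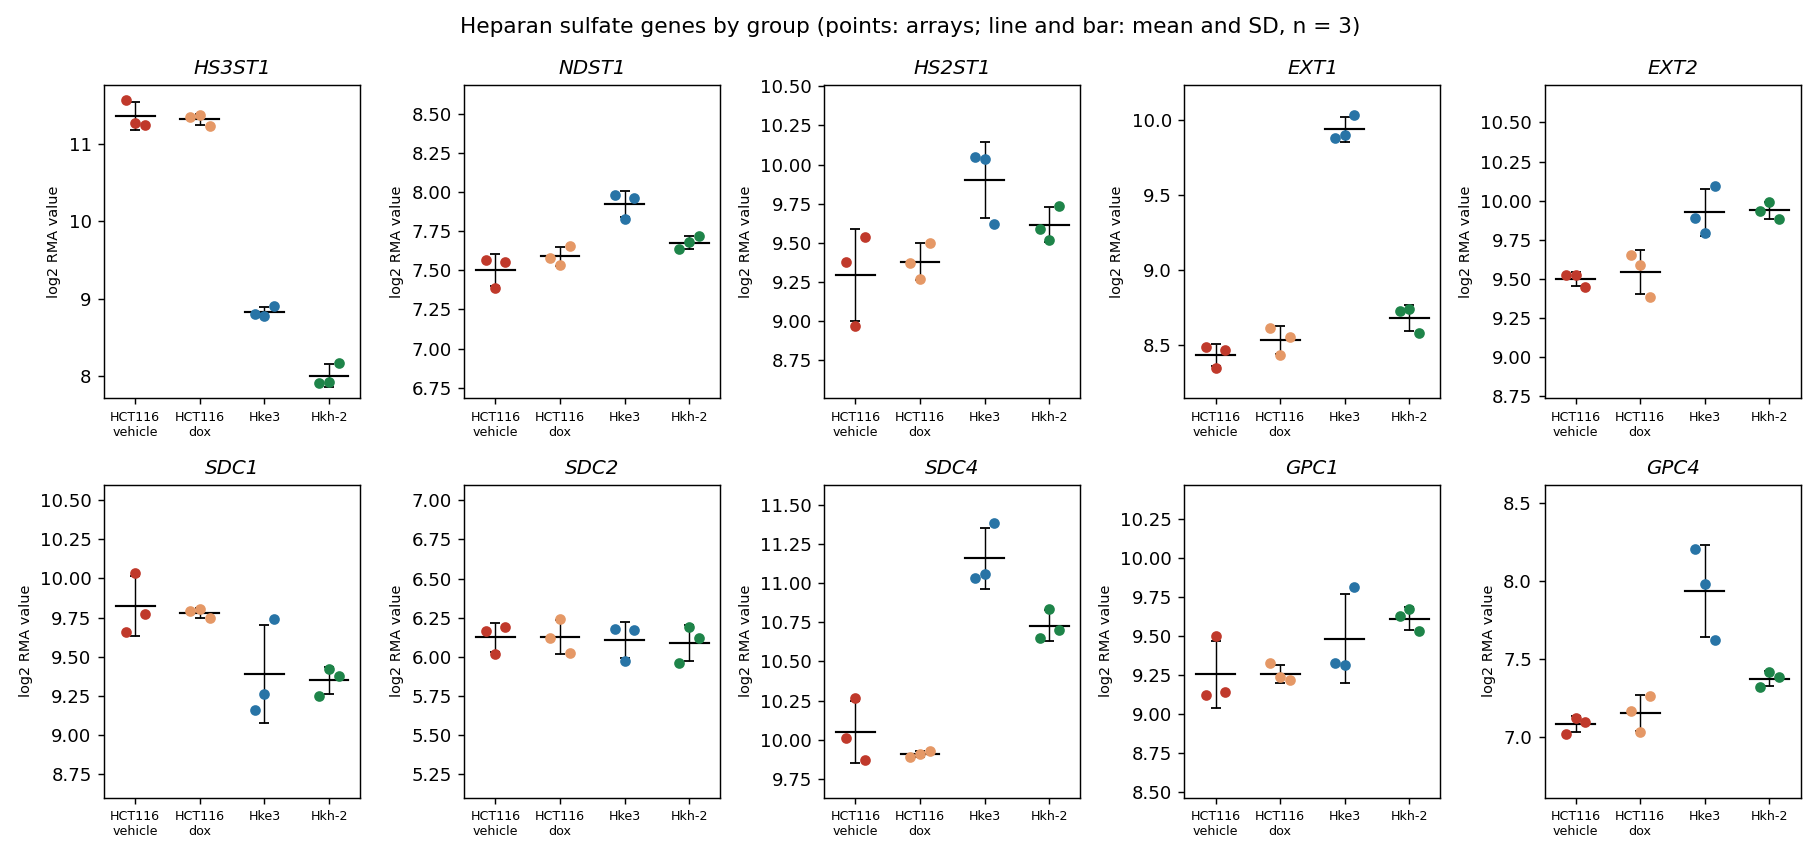
Log2 RMA value (vertical axes, each with its own range) of the representing probe set of the 10 genes on each array, by group. Points are the 3 arrays of a group, the horizontal line is their mean and the bar their SD. HS3ST1 falls from a mean of 11.36 in HCT116 to 8.83 in Hke3 and 8.01 in Hkh-2, EXT1 and GPC4 are highest in Hke3, and SDC2 stays between 5.96 and 6.24 throughout.

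Syndecans are transmembrane proteoglycans. SDC1, the main syndecan of epithelia, read 9.66, 10.04 and 9.77 with vehicle, 9.79, 9.80 and 9.74 with doxycycline, 9.16, 9.26 and 9.74 in Hke3, and 9.25, 9.42 and 9.38 in Hkh-2. The vehicle arrays lay above all Hkh-2 arrays and overlapped Hke3 through replicate 3, which was 0.53 above the mean of the other Hke3 arrays. HCT116 was 0.44 above Hke3 and 0.48 above Hkh-2 (SE 0.14 for each), or 0.51 and 0.37 without both arrays that stood apart. Hke3 minus Hkh-2 was 0.04 (95% interval −0.25 to 0.33, adjusted p = 0.846, limma). The probe set 201286_at gave differences of 0.16 and 0.40 for HCT116 over the lines and, with probe sets of the _x_at and _s_at kinds left out, put Hke3 0.24 above Hkh-2 (adjusted p = 0.048), a call lost with each probe set tested by itself (adjusted p = 0.0511, limma).

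SDC2, the syndecan of mesenchymal cells that some colon cancers express, was at the edge of background. Its representing probe set read 5.96 to 6.24 over the 12 arrays, with group means of 6.12, 6.13, 6.11 and 6.09, and the groups overlapped fully. The differences were 0.02 and 0.04 for HCT116 over Hke3 and Hkh-2, and 0.02 for Hke3 minus Hkh-2 (95% interval −0.18 to 0.22, adjusted p = 0.892, limma). The remaining SDC2 probe sets were under 6 in every group.

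SDC4, a widely expressed syndecan found at focal adhesions, has 1 probe set on the array. It read 10.01, 10.26 and 9.87 with vehicle, 9.89, 9.91 and 9.93 with doxycycline, 11.03, 11.06 and 11.38 in Hke3, and 10.65, 10.84 and 10.70 in Hkh-2. The levels of HCT116, Hkh-2 and Hke3 rose in that order with no overlap. HCT116 was 1.11 below Hke3 and 0.68 below Hkh-2 (SE 0.11 for each), and Hke3 exceeded Hkh-2 by 0.43 (95% interval 0.19 to 0.67, adjusted p = 0.0085, limma). The direction of SDC4 was thus opposite to that of SDC1.

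Glypicans are bound to the membrane by a lipid anchor. GPC1 read 9.12, 9.50 and 9.14 with vehicle, 9.32, 9.24 and 9.22 with doxycycline, 9.32, 9.31 and 9.81 in Hke3, and 9.63, 9.67 and 9.53 in Hkh-2. Hkh-2 lay just above the vehicle arrays, while Hke3 overlapped both through its spread of 0.28 (SD, n = 3). HCT116 was 0.23 below Hke3 and 0.36 below Hkh-2 (SE 0.13 for each), and Hke3 minus Hkh-2 was −0.13 (95% interval −0.41 to 0.16, adjusted p = 0.477, limma). Without Hke3 replicate 3, which read 0.49 above the mean of the others, Hke3 minus Hkh-2 was −0.29 (adjusted p = 0.0376, limma) and HCT116 minus Hke3 was −0.06. With the mean of the gene's probe sets HCT116 minus Hke3 was −0.023. The second probe set, 202755_s_at, put HCT116 0.18 above Hke3 and 0.15 below Hkh-2.

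GPC4 read 7.03, 7.12 and 7.10 with vehicle, 7.17, 7.04 and 7.27 with doxycycline, 8.20, 7.98 and 7.62 in Hke3, and 7.32, 7.42 and 7.38 in Hkh-2. As with SDC4, the order from HCT116 through Hkh-2 to Hke3 held without overlap. HCT116 was 0.85 below Hke3 and 0.29 below Hkh-2 (SE 0.12 for each), and Hke3 exceeded Hkh-2 by 0.56 (95% interval 0.30 to 0.82, adjusted p = 0.00245, limma). Its other probe set, 204983_s_at, put HCT116 0.90 and 0.61 below the lines.

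**Figure D2:**
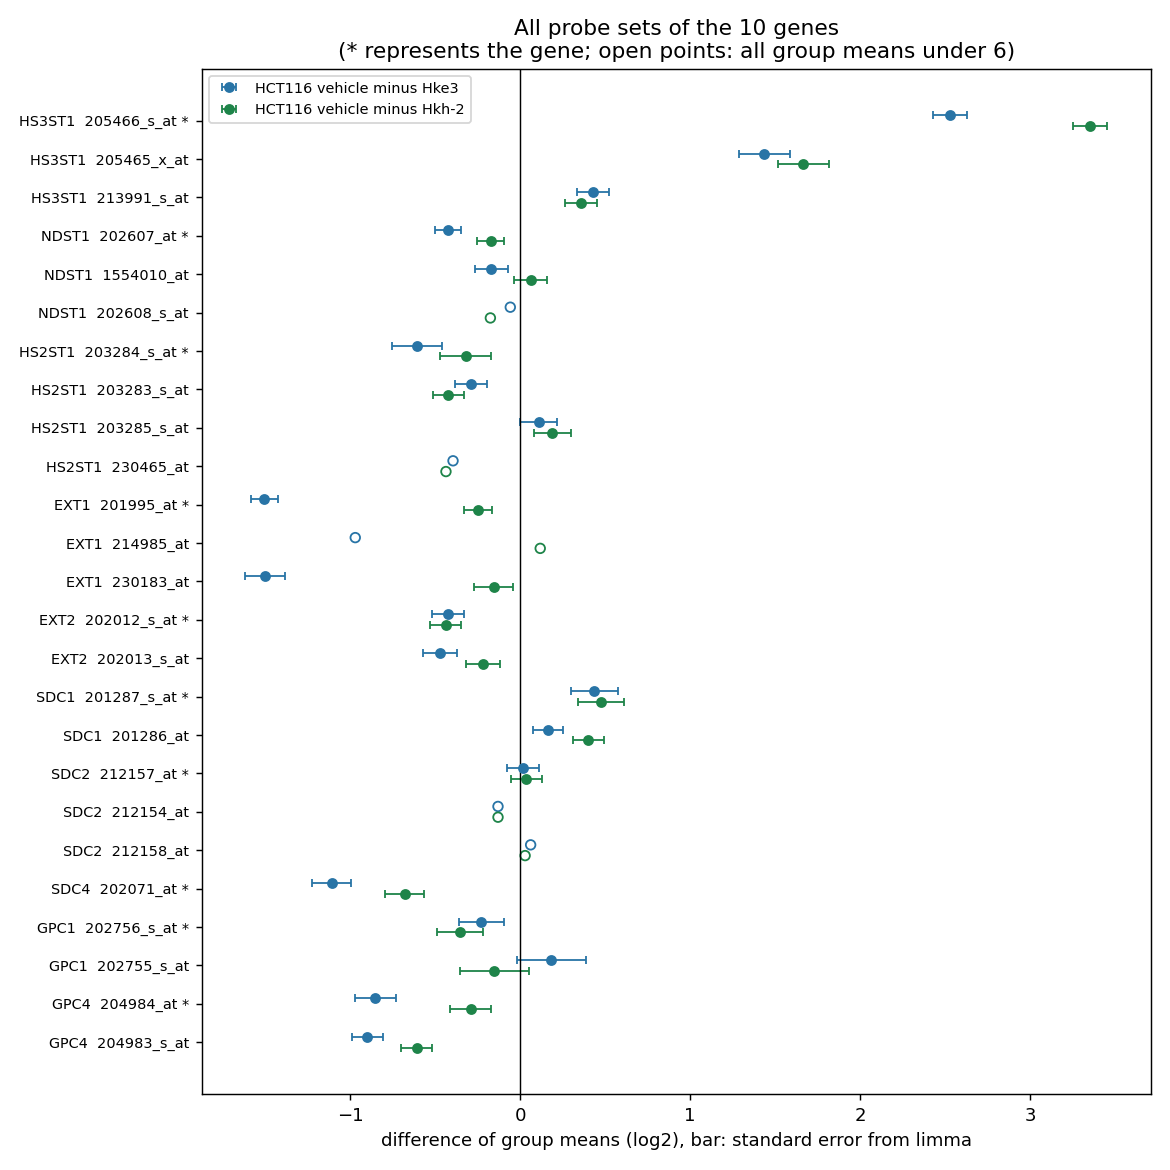
Difference of group means on the log2 scale (horizontal axis) for all 25 probe sets of the 10 genes, HCT116 vehicle minus Hke3 in blue and minus Hkh-2 in green. Bars are standard errors from limma, an asterisk marks the probe set that represents its gene, and open points are probe sets with every group mean under 6. The HS3ST1 probe sets 205466_s_at and 205465_x_at lie to the right of 0 by 1.44 to 3.35, while the representing probe sets of EXT1, SDC4 and GPC4 lie to the left by 0.25 to 1.50.

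As a count, at an adjusted p under 0.05 over 12852 genes (limma, Benjamini-Hochberg), HCT116 exceeded Hke3 for 2 of the 10 genes, beside 24.6% of all genes, and lay below it for 6, beside 23.2%. It exceeded Hkh-2 for 2, beside 14.3% of all genes, and lay below it for 3, beside 21.7%. Nothing is read from these counts, since the list was made with these differences known. The median difference of the 10 genes was −0.43 against Hke3 and −0.27 against Hkh-2, beside 0.04 and −0.02 over all genes tested.

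Between the derived lines, Hke3 exceeded Hkh-2 for 4 of the 9 genes other than HS3ST1, beside 16.3% of all genes, and lay below it for 0, beside 23.5%. Those 4 are EXT1, GPC4, SDC4 and NDST1, and HS3ST1 was left out because the choice of members used its values. Nothing is read from this count either, since the 9 genes were added with results of the same arrays known. Of the 5 not called, HS2ST1, SDC1 and SDC2 had positive differences on their representing probe sets and GPC1 and EXT2 negative ones. The intervals of HS2ST1 and GPC1 reach 0.60 above and 0.41 below 0. The median difference was 0.27 for the 10 genes, HS3ST1 included, and −0.06 over all genes.

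With doxycycline no difference of the 10 genes passed the test. The differences from vehicle ran from −0.14 for SDC4 to 0.10 for EXT1, and 0 of 10 were called, where 0% of the 12852 genes were called (limma). At an unadjusted p under 0.05 the count was 0 of the 10 genes and 127 of all genes, and the smallest adjusted p over all genes was 1.00. The interval for HS3ST1 was −0.26 to 0.17 around −0.04, and the widest was that of HS2ST1, −0.23 to 0.40 around 0.09.

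**Figure D3:**
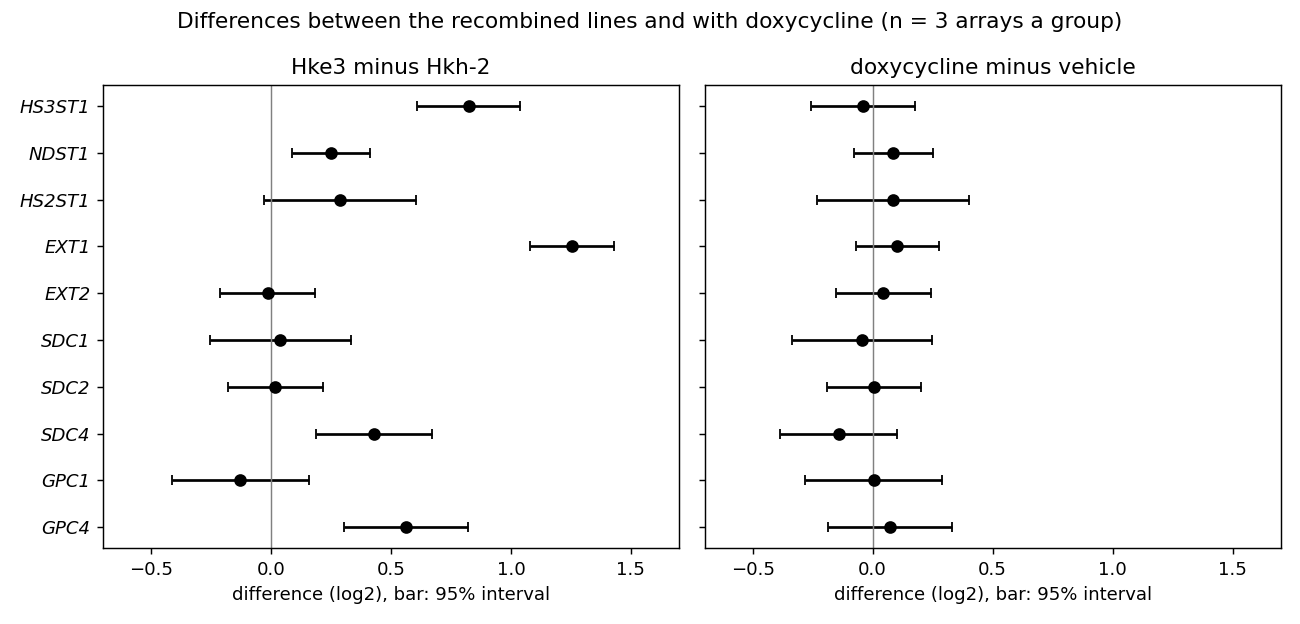
Difference of group means on the log2 scale (horizontal axes) with 95% intervals from limma for the 10 genes, Hke3 minus Hkh-2 on the left and doxycycline minus vehicle in HCT116 on the right, with 3 arrays per group. On the left the intervals of EXT1, HS3ST1, GPC4, SDC4 and NDST1 lie above 0, with EXT1 at 1.25, and on the right all 10 intervals include 0.

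The rest of the pathway was described from lists of 67 other genes, of which 63 were measured by a probe set naming no further gene, and 48 of these were above background in at least 1 group. HCT116 exceeded Hke3 for 9 of the 48, beside 24.6% of all genes, and lay below it for 13, beside 23.2% (limma, adjusted p under 0.05). It exceeded Hkh-2 for 12, beside 14.3%, and lay below it for 13, beside 21.7%. Hke3 exceeded Hkh-2 for 13, beside 16.3%, and lay below it for 7, beside 23.5%. The 13 include SPOCK3, whose means in both lines were under 6 (5.62 in Hke3 and 5.16 in Hkh-2). The same shares of all genes are the background of every count by role that follows. Their median differences were −0.05, −0.04 and 0.06. With doxycycline 0 of the 48 were called (limma), and 0 had an unadjusted p under 0.05. Among close relatives of the 10 genes, the glypicans GPC2, GPC3, GPC5 and GPC6, the 3-O-sulfotransferases HS3ST2, HS3ST3A1, HS3ST4, HS3ST5 and HS3ST6, the N-sulfotransferases NDST3 and NDST4, and EXTL1 were under 6 in every group. Some genes are named below only because they make up a count, which was done after their values were seen.

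Of 4 other chain modification genes above background, HCT116 exceeded Hke3 for 1 and lay below Hkh-2 for 1, and Hke3 lay below Hkh-2 for 2. HS3ST3B1, the remaining 3-O-sulfotransferase measured above background, averaged 7.33 with vehicle, 7.37 with doxycycline, 7.21 in Hke3 and 7.73 in Hkh-2. Unlike HS3ST1 it was lower in HCT116 than in Hkh-2, by 0.40 (adjusted p = 0.0183, limma), a call lost without vehicle replicate 2 (difference −0.25, adjusted p = 0.0515) or Hkh-2 replicate 3 (difference −0.37, adjusted p = 0.0672, limma) and with the mean of its probe sets (difference −0.12, adjusted p = 0.172). It was also lower in Hke3 than in Hkh-2, with a difference of −0.52 (adjusted p = 0.00383, limma). HS6ST1, a 6-O-sulfotransferase, was likewise lower in Hke3 than in Hkh-2, at −0.46 (adjusted p = 0.00217, limma), and without both arrays that stood apart HCT116 minus Hkh-2 was −0.26 (adjusted p = 0.0118). HS6ST1 is also the gene called above Hke3, by 0.30 (adjusted p = 0.0214, limma). That call was lost without vehicle replicate 2 (adjusted p = 0.0874) or Hke3 replicate 2 (adjusted p = 0.0984, limma). It was lost too with doxycycline arrays as control (adjusted p = 0.0841) and with the compared groups alone (adjusted p = 0.0849, limma). GLCE, the epimerase that makes iduronic acid, had differences of −0.04, −0.34 and −0.30 in the 3 comparisons, none of them called, though without Hke3 replicate 3 the second passed (adjusted p = 0.02, limma).

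For the 10 genes above background that supply activated sugar and sulfate, HCT116 lay below Hke3 for 5, beside 23.2% of all genes, and above it for 0, beside 24.6%. The 5 are UGP2, UGDH, UXS1, PAPSS2 and SLC35B3. HCT116 lay below Hkh-2 for 4 (UGP2, UGDH, UXS1 and SLC35B3) and above it for 3 (PAPSS2, SLC35D1 and SLC26A2), and Hke3 lay above Hkh-2 for 4 (UGP2, PAPSS2, SLC35D1 and SLC26A2) and below it for 0. UGP2, which makes UDP-glucose, was lower by 1.29 than in Hke3 (adjusted p = 4.45e-07) and by 0.61 than in Hkh-2 (adjusted p = 0.000409, limma), the second lost with the mean of its probe sets (−0.34, adjusted p = 0.16). PAPSS2, which makes the sulfate donor PAPS, averaged 10.22 with vehicle, 10.26 with doxycycline, 11.04 in Hke3 and 9.43 in Hkh-2. HCT116 was thus 0.83 below 1 line and 0.78 above the other (adjusted p = 9.44e-06 and 1.94e-05), and the lines differed by 1.61 (adjusted p = 2.54e-08, limma). SLC35B3, a Golgi transporter of PAPS, was lower in HCT116 by 0.97 and 0.86 (adjusted p = 0.000479 and 0.00149, limma).

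Of 7 linkage genes, HCT116 exceeded Hke3 for 1 (FAM20B) and lay below it for 0, and it exceeded Hkh-2 for 2 (FAM20B and PXYLP1) and lay below it for 1 (B4GALT7). The PXYLP1 difference from Hkh-2, 0.24, was at the edge of the threshold (adjusted p = 0.0499, limma). The FAM20B difference from Hke3, 0.28 (adjusted p = 0.022), was lost as a call without vehicle replicate 1 (adjusted p = 0.0841) or Hke3 replicate 3 (adjusted p = 0.0678), with doxycycline arrays as control (adjusted p = 0.0626), with the mean of its probe sets (0.15, adjusted p = 0.0987), with median subtraction (adjusted p = 0.0501) and with the compared groups alone (adjusted p = 0.0786, limma). FAM20B, the xylose kinase of the linkage region, was higher in HCT116 than in Hkh-2 by 0.83 (adjusted p = 1.05e-05) and in Hke3 than in Hkh-2 by 0.55 (adjusted p = 0.000361, limma). B4GALT7, a galactosyltransferase of the linkage region, was 0.38 below Hkh-2 (adjusted p = 0.0189), a call lost without vehicle replicate 3 (adjusted p = 0.0535), Hkh-2 replicate 2 (adjusted p = 0.0665) or Hkh-2 replicate 3 (adjusted p = 0.0792, limma). B3GAT3, which completes the linkage region, had differences of 0.34, −0.06 and −0.40 and was not called, though without Hke3 replicate 3 the first was 0.56 (adjusted p = 0.0117) and the last −0.62 (adjusted p = 0.0075, limma). EXTL3, which starts the heparan sulfate chain, and EXTL2, another glucosaminyl transferase of this family, were higher in HCT116 than in Hkh-2 by 0.53 and 0.34 (adjusted p = 0.00378 and 0.0138, limma). Without Hke3 replicate 3, EXTL3 was also higher in HCT116 than in Hke3, by 0.43 (adjusted p = 0.00178, limma). The EXTL2 call was lost without vehicle replicate 1 (adjusted p = 0.0508) or replicate 3 (adjusted p = 0.0585, limma).

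Of 9 other core proteins above background, HCT116 exceeded Hke3 for 5 (AGRN, HSPG2, TGFBR3, SPOCK2 and SPOCK3) and lay below it for 1 (CD44). It exceeded Hkh-2 for 3 (AGRN, SPOCK2 and SPOCK3) and lay below it for 3 (COL18A1, TGFBR3 and CD44). TGFBR3, or betaglycan, was 0.64 above Hke3 and 0.44 below Hkh-2 (adjusted p = 0.000409 and 0.00711), and the lines differed by −1.08 (adjusted p = 7.32e-06, limma). SPOCK3, a testican, averaged 6.65 in HCT116 and was under 6 in both lines, so that HCT116 was higher by at least 0.65 (adjusted p = 6.8e-05 and 3.08e-06, limma). COL18A1, a basement membrane collagen that carries heparan sulfate, was 0.65 below Hkh-2 (adjusted p = 0.0316, limma), a call lost without vehicle replicate 1 or 3 or any 1 of the Hkh-2 arrays, at adjusted p of 0.0596 to 0.12. Without both arrays that stood apart it was also called against Hke3, at −0.50 (adjusted p = 0.000416, limma). SDC3, the remaining syndecan, had differences of 0.36, 0.03 and −0.33, none of them called (adjusted p = 0.0583, 0.909 and 0.0876, limma), though without Hke3 replicate 3 the first was 0.49 (adjusted p = 0.0132) and the last −0.46 (adjusted p = 0.0192).

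The enzymes that act on finished chains also differed. SULF2, which removes 6-O-sulfates outside the cell, averaged 8.47 in HCT116, 8.66 in Hke3 and 7.62 in Hkh-2, with HCT116 higher than Hkh-2 by 0.85 (adjusted p = 0.000114) and Hke3 by 1.04 (adjusted p = 2.26e-05, limma). HPSE, heparanase, was lower in HCT116 than in Hkh-2 by 0.72 (adjusted p = 6.44e-06, limma), but by 0.14 without _x_at and _s_at probe sets (adjusted p = 0.301). Of 7 lysosomal genes, HCT116 exceeded Hke3 for 2 (SGSH and ARSG) and lay below it for 2 (IDS and HGSNAT), and it exceeded Hkh-2 for 1 (ARSG) and lay below it for 2 (IDS and HGSNAT). The iduronate sulfatase IDS was lower in HCT116 by 0.60 and 0.93 (adjusted p = 0.000364 and 1.21e-05), and the sulfamidase SGSH was higher than in Hke3 by 0.44 (adjusted p = 0.00921, limma). ARSG, the glucosamine 3-O-sulfatase that removes the group added by HS3ST1, averaged 6.34 in HCT116 and was under 6 in both lines, a difference of at least 0.34 (adjusted p = 1.18e-05 and 0.000219, limma).

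Of 7 shedding proteases and cytoplasmic partners, HCT116 lay below Hke3 for 4 (ADAM10, ADAM17, MMP7 and CASK), beside 23.2% of all genes, and below Hkh-2 for 1 (ADAM10), beside 21.7%, and above either line for 0. MMP7, matrilysin, which can release the SDC1 ectodomain, averaged 7.60 in Hke3 and was under 6 in the other groups, which puts Hke3 at least 1.60 above HCT116 and Hkh-2 (adjusted p = 2.12e-06 and 2.83e-06, limma). ADAM10, another sheddase, was lower in HCT116 by 0.54 and 0.44 (adjusted p = 0.00146 and 0.0067, limma). CASK, a kinase-like scaffold that binds syndecan tails, was lower in HCT116 than in Hke3 by 0.47 (adjusted p = 0.000202, limma), while its other comparisons turned with the probe set.

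**Figure D4:**
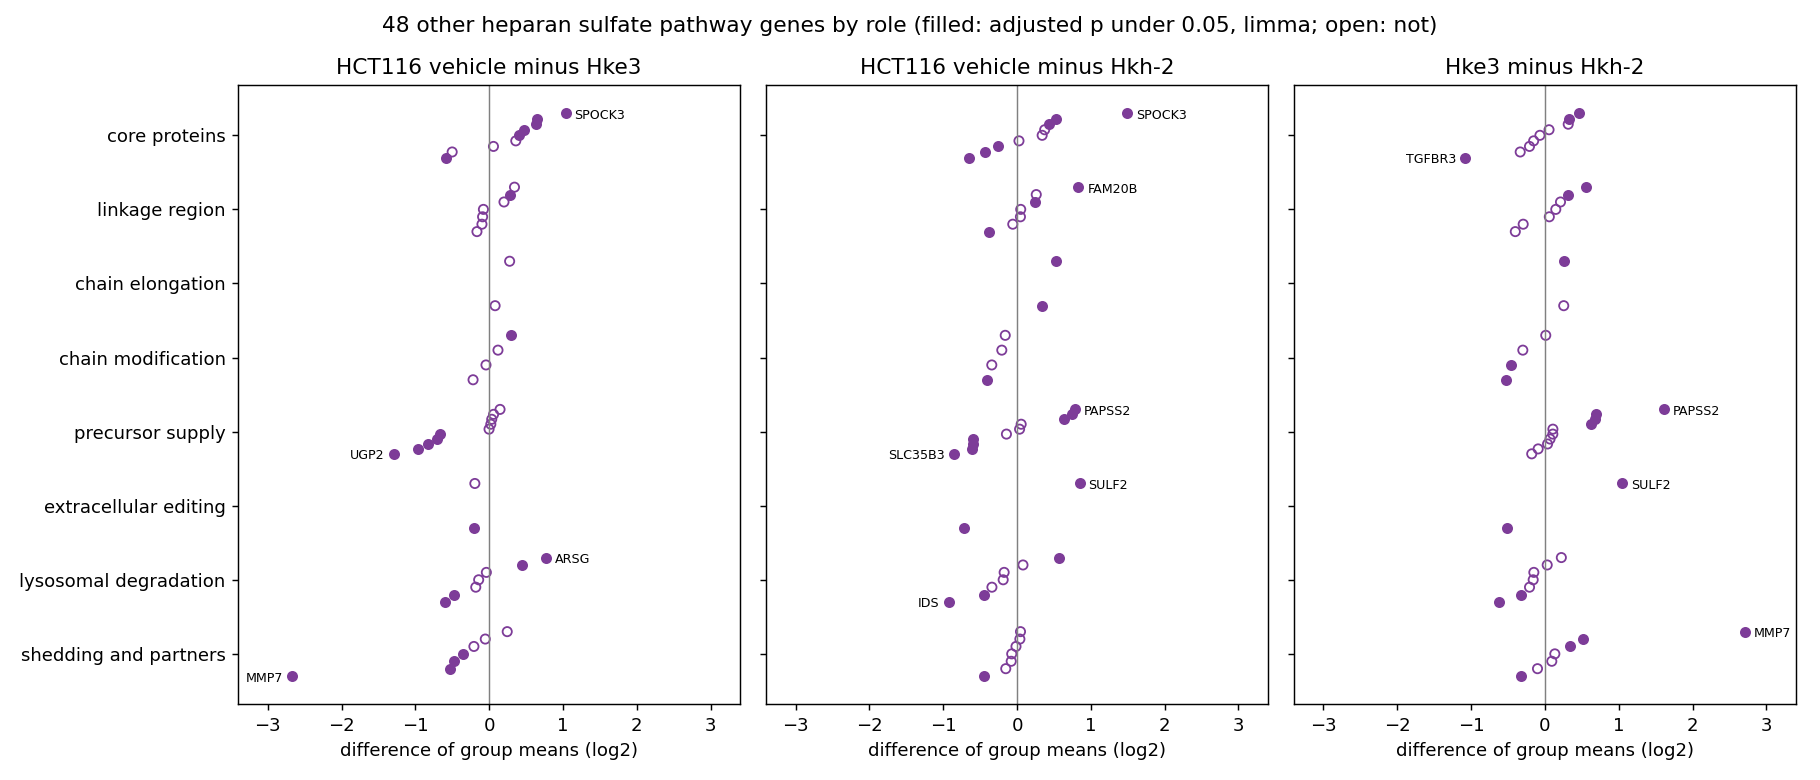
Difference of group means on the log2 scale (horizontal axes) for the 48 other heparan sulfate pathway genes by role (vertical axis), in 3 panels for HCT116 vehicle minus Hke3, HCT116 vehicle minus Hkh-2 and Hke3 minus Hkh-2. Each point is a gene, filled at an adjusted p under 0.05 in limma, and the outermost gene of a role is named where its measured difference is past 0.75, including MMP7 and SPOCK3, whose plotted differences rest on group means under 6. PAPSS2 changes side between the first panels, at −0.83 and 0.78.

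For comparison, the chondroitin sulfate branch, which starts from the same linkage region, had 14 genes above background. HCT116 lay below Hke3 for 8, beside 23.2% of all genes, and above it for 0, and below Hkh-2 for 4 (CHSY3, CHPF2, CHST14 and DSE) and above it for 1 (CHST11). Hke3 exceeded Hkh-2 for 7 and lay below it for 1 (CHPF). CHST11, a chondroitin 4-O-sulfotransferase, was 0.78 below Hke3 (adjusted p = 6.55e-05), and Hke3 was 1.10 above Hkh-2 (adjusted p = 4.62e-06, limma). Its difference of 0.32 from Hkh-2 (adjusted p = 0.0313) was lost as a call with median subtraction (adjusted p = 0.0568) and without vehicle replicate 1, vehicle replicate 3 or any 1 of the Hkh-2 arrays (adjusted p = 0.0671 to 0.114, limma). CSGALNACT1, which starts the chondroitin chain, averaged 6.23 in Hke3 and was under 6 elsewhere, so that Hke3 was at least 0.23 above HCT116 and Hkh-2 (adjusted p = 0.000285 and 3.95e-05, limma). CHSY3, a chondroitin synthase, averaged 7.53 in Hke3, 6.50 in Hkh-2 and under 6 in HCT116, which was lower by at least 1.53 and 0.50 (adjusted p = 1.15e-06 and 0.00214, limma).

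Among 8 heparin-binding ligands and receptors above background, HCT116 exceeded Hke3 for 2 (FGFBP1 and FGFR3) and lay below it for 3 (FGF2, HBEGF and FGFR2), and it exceeded Hkh-2 for 2 (FGFBP1 and FGFR3) and lay below it for 4 (FGF2, MDK, FGFR2 and FGFR4). FGF2, a growth factor that signals through a complex with heparan sulfate, averaged 6.33 in HCT116, 6.42 with doxycycline, 8.60 in Hke3 and 9.84 in Hkh-2. HCT116 was lower by 2.27 and 3.52 (adjusted p = 1.2e-08 and 1.94e-10), and Hke3 minus Hkh-2 was −1.25 (adjusted p = 5.19e-06, limma). FGFBP1, which releases FGF2 from the matrix, was higher in HCT116 by 0.68 and 0.56 (adjusted p = 0.000353 and 0.00197, limma). FGFR2 differed by −0.54 and −0.88 on its representing probe set (adjusted p = 0.00366 and 0.000125, limma), but its probe sets go in opposite directions.

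The genes whose pattern over the 12 arrays was most like that of HS3ST1 were ZBED2 (Pearson r = 0.994), PRKACB (0.993), PLAC1 (0.992), ABCC2 (0.990) and SAMD13 (0.989), out of 1247 genes with group means that span at least 1 unit. These r are a description over arrays that share 4 groups, so they mostly follow the group means. ZBED2 averaged 11.01 with vehicle, 11.01 with doxycycline, 7.91 in Hke3 and 7.21 in Hkh-2, in the same order as HS3ST1. PRKACB, a catalytic subunit of protein kinase A, averaged 11.97, 12.08, 9.69 and 8.86 in the same groups.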

How the data were processed

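RNA from HCT116 control cells with vehicle or doxycycline, from Hke3 and from Hkh-2 was measured on 12 Affymetrix arrays, 3 in each group. The deposited values are on the log2 scale, 1 for each probe set on each array, and RMA is the only tool that the submitters' processing notes list. Its version, the chip definition and which arrays were normalized together are not given in the sources used here, and a value depends on the arrays normalized with it. Groups and replicate numbers came from the sample labels.

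Probe set names came from the platform annotation, where 41097 carry a single gene (41043 matched by gene ID to RefSeq of GRCh38.p14), 1801 several and 11777 none. Where a gene had several probe sets, the one highest on average stood for it. Of 19775 genes, 12852 with a mean of 6 or more in at least 1 group were tested. The fit used limma 3.58.1 (R 4.3.3) on the 12 arrays with a mean for each of 4 groups, followed by Benjamini-Hochberg adjustment over the genes tested, with a threshold of 0.05. The procedure was tested on simulated data. For genes, a difference from a group mean under 6 was printed as computed from 6, with the words at least. The tests, calls and adjusted p used the values as measured, so an adjusted p beside such a difference belongs to the measured one.

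The 10 genes, the lists and the tests were chosen with earlier results of these data known. From each list, up to 3 genes with the largest difference in any comparison between lines were named, with relatives of the 10 genes. The targeted gene is not reported here, and arrays of other cells and times were not analysed here.

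The number of arrays limits the precision, and an exact two-sided test of 3 against 3 cannot give a p below 0.1. Same-numbered vehicle and doxycycline arrays deviated together (r = 0.228, 0.212 and 0.453 across genes), so they were taken as paired by number. Single r of this size also arose for vehicle with Hkh-2 (−0.046, 0.422 and 0.337). The main test of doxycycline did not use the pairing, and a paired fit of vehicle and doxycycline alone was not run. No other pair of groups had r above 0.1 for all 3 numbers, the nearest being doxycycline with Hkh-2 (0.076, 0.134 and 0.104). Alternatives were the mean of a gene's probe sets, leaving out _x_at and _s_at probe sets, each probe set by itself, no floor or a floor of 8, median subtraction, cyclic loess, other fits, the replicate block, doxycycline arrays as control, and leaving out each array or both that stood apart.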

Additional observations from a re-analysis of the deposited data

Results flagged for a closer look

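For EXT1, GPC4, SDC4, NDST1 and HS3ST1, HCT116 differed from Hke3 and from Hkh-2 by unlike amounts on the representing probe set. The gap is measured as Hke3 minus Hkh-2 on the log2 scale (limma, 3 arrays per group). Of all genes, 16.3% were called higher in Hke3 than in Hkh-2 and 23.5% lower, so nothing is read from how many genes are flagged. The gap was 1.25 for EXT1 (adjusted p = 9.11e-08), 0.56 for GPC4 (adjusted p = 0.00245), 0.43 for SDC4 (adjusted p = 0.0085) and 0.25 for NDST1 (adjusted p = 0.0187). For HS3ST1 it was 0.82, which is given without a test because the gene was chosen by the 2 differences it is made of. The other genes were added with results of the same arrays known, so their adjusted p are a description. On these probe sets EXT1, GPC4, SDC4 and NDST1 were farther from HCT116 in Hke3, and HS3ST1 in Hkh-2. The second HS3ST1 probe set, 205465_x_at, gave a gap of 0.23 with the lines overlapping, and the third was near background. With the mean of its probe sets the NDST1 gap was 0.12 (adjusted p = 0.224, limma). The NDST1 call was also lost without Hke3 replicate 1, Hkh-2 replicate 1 or Hkh-2 replicate 2. Each line is a single line, so a difference that belongs to a line and one that belongs to its recombined allele cannot be told apart.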

How the results depend on the processing

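No difference of the 10 genes changed direction under the alternatives when it had been called. Of the values recomputed for these genes, 887 kept their call or, where no test was given, stayed within the spread between replicates, 12 moved by more than that spread, 5 gained a call, 4 lost one and 0 called differences reversed. Without probe sets of the _x_at and _s_at kinds, which left 6 of the 10 genes, the genes called came to 4 against 8 for HCT116 minus Hke3 and 3 against 5 for HCT116 minus Hkh-2, with HS3ST1 not among those left. A floor of 8 in place of 6 left 3 called against 5 for Hke3 minus Hkh-2 (HS3ST1 included, as in the counts that follow), where fewer genes were tested. Leaving out each array in turn gave 7 to 8 called for HCT116 minus Hke3, 3 to 7 for HCT116 minus Hkh-2 (3 without Hkh-2 replicate 1), 4 to 7 for Hke3 minus Hkh-2 (7 without Hke3 replicate 3) and 0 to 0 with doxycycline. Without both arrays that stood apart the counts were 9, 7 and 7. The replicate block tied same-numbered arrays of all groups, although only vehicle and doxycycline arrays were taken as paired by number. With it the counts were 8, 5, 5 and 0, and the block changed no call of the 10 genes for Hke3 minus Hkh-2 or doxycycline minus vehicle. The share of all genes called under each setting is not given, so nothing is read from changes in these counts or in those below.

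For the 48 other pathway genes, leaving out each array gave 20 to 27 called for HCT116 minus Hke3, 19 to 29 for HCT116 minus Hkh-2, 15 to 27 for Hke3 minus Hkh-2 and 0 to 0 with doxycycline, and the replicate block gave 21, 25, 19 and 0. Without _x_at and _s_at probe sets, 15 were called for HCT116 minus Hkh-2 against 25, with fewer genes tested, and without both arrays that stood apart 31 were called for Hke3 minus Hkh-2 against 20. Reversals came from the choice of probe set. Without _x_at and _s_at probe sets, Hke3 minus Hkh-2 became 0.25 for HPSE from −0.51, 0.048 for IDS from −0.33, −0.019 for CASK from 0.52 and 0.54 for FGFR2 from −0.34, and HCT116 minus Hkh-2 became −0.38 for CASK from 0.05 and 0.43 for FGFR2 from −0.88. With the mean of all probe sets, IDS became 0.12 for Hke3 minus Hkh-2 and FGFR2 0.10 for HCT116 minus Hke3 from −0.54.

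Signal near background limits SDC2 and 5 of the 25 probe sets, for which a small difference could not be seen. Subtracting each array's median or a cyclic loess between arrays reversed no called difference of the 10 genes. Of those not called, SDC2 turned for HCT116 minus Hke3 from 0.02 to −0.02 and −0.06 and, with loess, for HCT116 minus Hkh-2 from 0.04 to −0.0092, and EXT2 turned with loess for Hke3 minus Hkh-2 from −0.01 to 0.04, as did GPC1 for doxycycline minus vehicle from 0.0043 to −0.0009.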
